A study of Saccharomyces cerevisiae with 48 samples.

Results

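DNA in living cells is wound around itself to a varying degree, and transcription leaves under-wound, negatively supercoiled DNA behind the polymerase and over-wound DNA in front of it. Biotinylated trimethylpsoralen (bTMP) slips preferentially into under-wound DNA, so that streptavidin pull-down of the crosslinked fragments marks where such DNA lies. In budding yeast such sites are known at the boundaries of genes, and the topoisomerases Top1 and Top2 remove supercoils of both signs. Yeast responds to warmth by inducing chaperone genes through the activators Hsf1 and Msn2/Msn4 and by lowering transcription of ribosomal protein genes.

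The comparison described here sets bTMP peaks at 32 °C against bTMP peaks of log cultures in the strains with intact SEN1 and no topoisomerase mutation, wild type (WT) and rrm3. The members were the bTMP peak lists of these strains and conditions, 4 of the 20 bTMP lists in a series of 48 libraries, 24 of which have a peak list. The Rrm3 helicase eases fork passage at sites where proteins are tightly bound to DNA, and the Sen1 helicase takes RNA polymerase II off short non-coding transcription units. The genotype of the mutant is labelled rrm3 without naming the allele, and whether a strain is 1 clone or a pool is not stated.

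The 32 °C cultures of WT and rrm3 are labelled as log cells at 32 °C. The growth text gives a schedule at that temperature for the top2 allele strains, from YPG to YPD at 25 °C for 1.5 h followed by 32 °C for 1 h, and no other. The log cultures of WT and rrm3 went from YPG to YPD for 2.5 h, with no temperature stated, so the size of the temperature step is not known. A move from glycerol to glucose medium before harvest is thus stated for the log cultures. For WT and rrm3 at 32 °C it is not stated. Each strain and condition had 1 library, so no comparison between the 4 lists has a replicate check and none carries a p-value. A change is described only where WT and rrm3 moved the same way, and the strains stand in for repeats.

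The lists differed in length, in opposite directions. The 32 °C lists held 4052 nuclear peaks in WT and 3407 in rrm3, against 3558 in WT log and 4254 in rrm3 log. They covered 10.2% and 8.19% of the nuclear genome at 32 °C, against 8.34% and 10.2% in log, a log2 change of 0.29 in WT and -0.31 in rrm3. Read depth is unknown, so a longer list may come from the cells, the depth or the caller, and these cannot be told apart. Relative coverage, the peak-covered share of a feature class over that of the whole nuclear genome, was therefore used for classes. Median peak widths were similar, at 262 and 253 bp at 32 °C against 246 and 248 bp in log. The base pairs shared by both 32 °C lists made up 0.554 of those under either, and the value was 0.510 for both log lists. Between conditions it was 0.473 in WT and 0.523 in rrm3.

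The WT log list stood apart from the others. Relative coverage of genes of 4 kb and longer was 1.13 in WT and 1.01 in rrm3 at 32 °C, against 0.451 in WT log and 1.25 in rrm3 log. Over the 34 Ty retrotransposon reading frames among these genes, whose near-identical copies share reads, relative coverage was 3.70 in WT and 3.48 in rrm3 at 32 °C, against 0.633 in WT log and 4.17 in rrm3 log. The WT log list was also the most concentrated of the 4 at gene starts. At 50 bp upstream, relative coverage was 2.01 in WT and 2.13 in rrm3 at 32 °C, against 2.55 in WT log and 1.96 in rrm3 log. Results in WT rest on this list, and the change in rrm3 alone is given beside each class. No peak lay over RRM3 in either rrm3 list. In WT, none of RRM3 and its upstream 300 bp lay under peaks at 32 °C, against 20.7% in log, so the locus checks the label of WT in log and not at 32 °C.

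Of 14 feature classes, 2 were lower at 32 °C by at least 0.1 on the log2 scale in both strains (14.3%) and 0 were higher. The first was the pericentromeric chromatin, where cohesin gathers around the kinetochore. Within 20 kb of the interval between the innermost genes of both arms, relative coverage was 1.05 in WT and 1.02 in rrm3 at 32 °C, against 1.54 in WT log and 1.41 in rrm3 log. Both 32 °C lists were thus near the genome's level there, and both log lists were above it. The log2 change was -0.55 in WT and -0.46 in rrm3, a mean of -0.51 ± 0.06 (SD over both strains). In plain cover, 10.7% and 8.36% of these base pairs lay under peaks at 32 °C, against 12.9% and 14.3% in log, and plain cover was lower in WT too, although its 32 °C list was the longer.

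**Figure D1:**
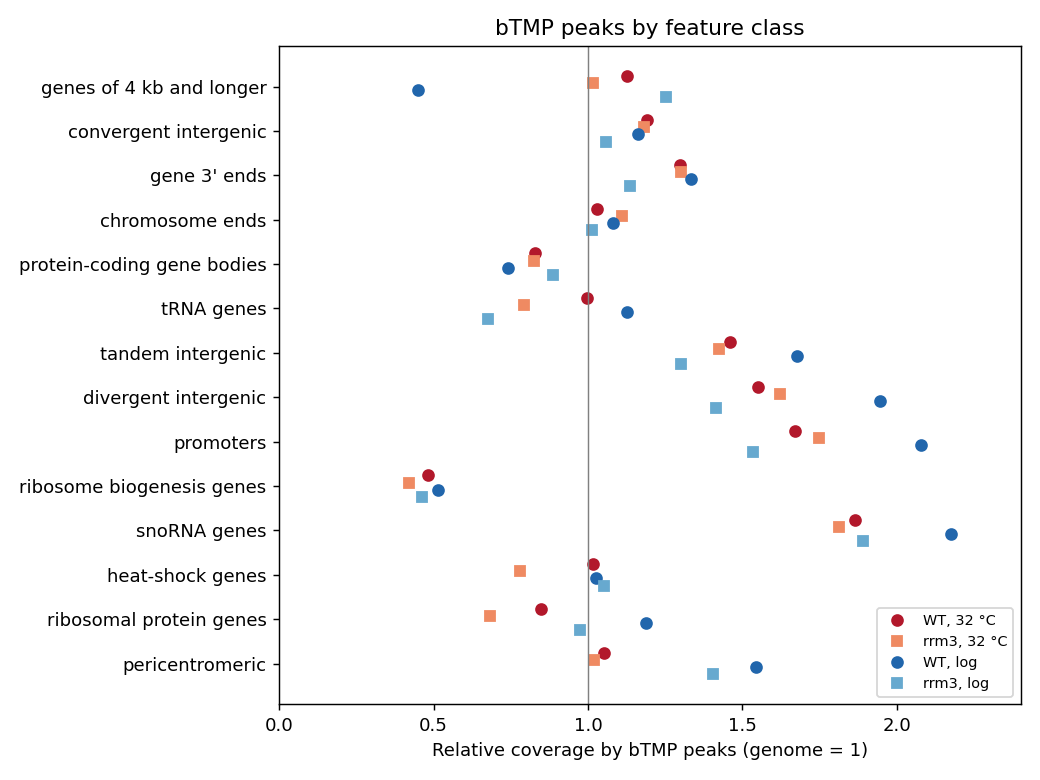
Relative coverage by bTMP peaks (x axis, genome = 1) of 14 feature classes (y axis), 1 point per peak list, in WT (circles) and rrm3 (squares) at 32 °C (reds) and in log (blues). Both 32 °C lists lie below both log lists by more than 0.1 on the log2 scale in each strain for pericentromeric stretches and ribosomal protein genes, and the WT log point of genes of 4 kb and longer lies alone at 0.451.

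The difference was present in each 5 kb bin out to 20 kb, at -0.75 to -0.40 on the log2 scale in WT and -0.55 to -0.30 in rrm3, and was smaller in the bins farther out. In the innermost 5 kb, relative coverage was 1.02 in WT and 0.977 in rrm3 at 32 °C, against 1.71 and 1.35 in log. Between 20 and 30 kb it was 1.17 and 1.08 at 32 °C, against 1.35 and 1.27 in log. Between 80 and 100 kb it was 1.09 and 1.03 at 32 °C, against 1.07 and 1.02 in log, with changes of 0.03 and 0.02 on the log2 scale.

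**Figure D2:**
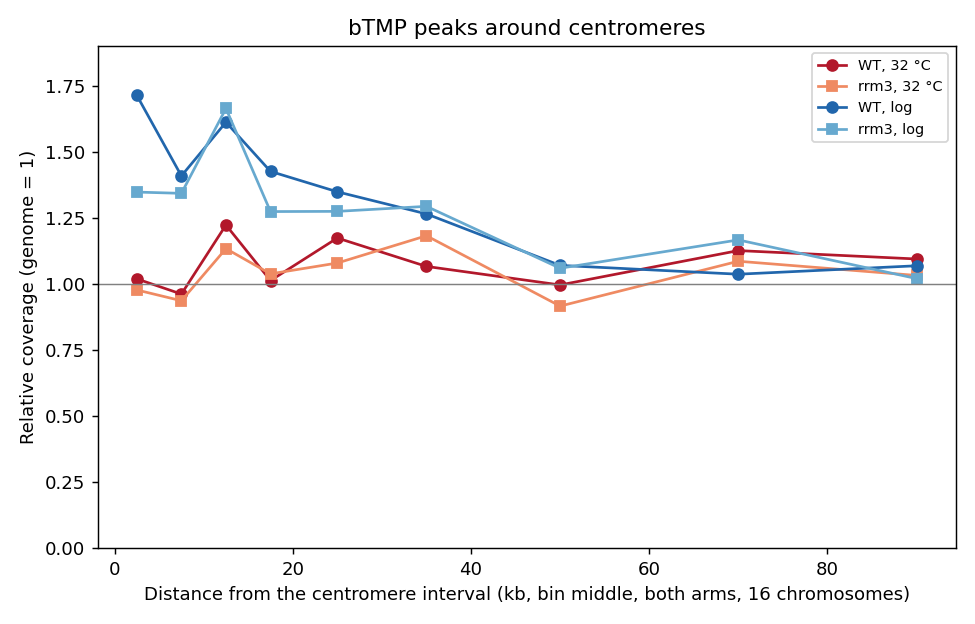
Relative coverage by bTMP peaks (y axis, genome = 1) against distance from the centromere interval in kb (x axis, middle of each bin, both arms of 16 chromosomes pooled), 1 line per peak list. The 32 °C lines (reds) stay between 0.916 and 1.22, and the log lines (blues) reach 1.71 in WT and 1.66 in rrm3 within 20 kb and meet the 32 °C lines beyond 60 kb.

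The same direction was seen on most chromosomes. Relative coverage of the window was lower at 32 °C in both strains on 14 of 16 chromosomes. On chromosome XV it was 0.498 in WT and 0.552 in rrm3 at 32 °C, against 1.08 and 1.12 in log. On chromosome VII it was 1.57 and 1.39 at 32 °C, against 2.21 and 1.95 in log. Chromosome VI was the exception that was higher in both, at 1.34 and 1.27 against 1.20 and 1.21. On chromosome I the strains moved apart, at 1.53 in WT and 1.37 in rrm3 at 32 °C against 1.16 in WT log and 1.80 in rrm3 log.

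Lists that had no part in this comparison gave a mixed picture. At 32 °C the 4 top2-1 strains had a pericentromeric relative coverage of 1.09 to 1.17. In log, sen1 had 1.42 and sen1rrm3 1.28, while the 4 top1 strains had 0.891 to 1.12. The sen1 and sen1rrm3 lists at 32 °C had 1.21 and 1.19, but they are of another kind, with no gap between peaks under 591 bp, against smallest gaps of 156 to 166 bp in the other bTMP lists of log and 32 °C cultures. The 4 top2-1 lists at 32 °C against the 6 other log lists gave a difference of 0.07 on the log2 scale (exact permutation p = 0.619, two-sided, adjusted p = 0.722). Temperature and topoisomerase mutation cannot be told apart in that contrast. Over the 14 classes it called 0 after Benjamini-Hochberg adjustment and 0 at an unadjusted p under 0.05. The smallest p that its 210 splits allow is 0.00476.

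**Figure D3:**
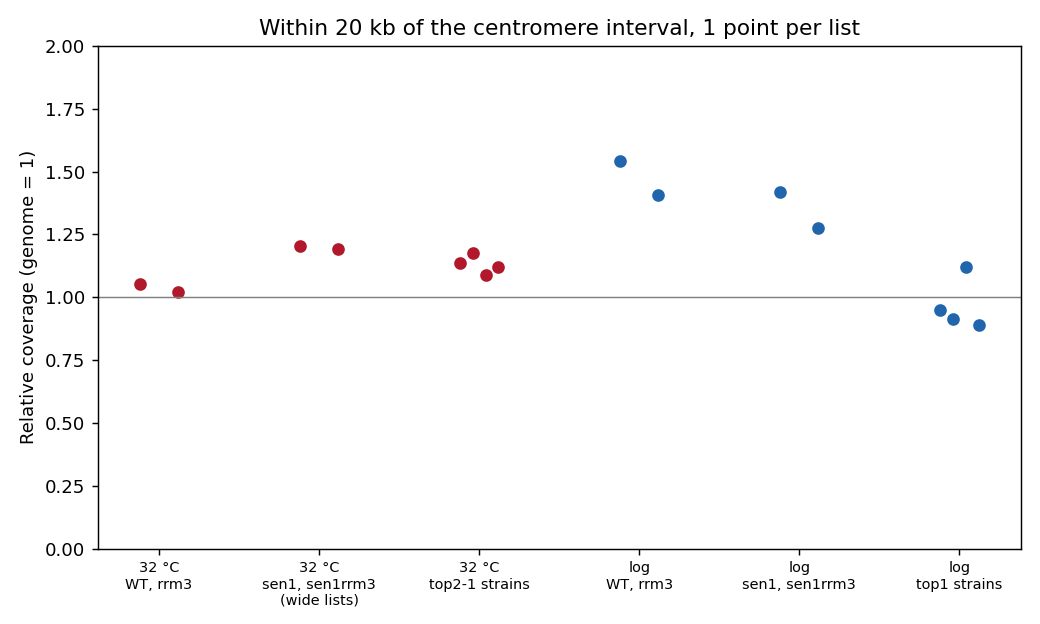
Relative coverage by bTMP peaks within 20 kb of the centromere interval (y axis, genome = 1), 1 point per peak list, in 6 kinds of list (x axis) at 32 °C (red, left) and in log (blue, right). WT and rrm3 lie at 1.05 and 1.02 at 32 °C and at 1.54 and 1.41 in log, and the log lists of the top1 strains lie between 0.891 and 1.12.

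Genes near centromeres showed it too. Among the 343 protein-coding genes within 20 kb, 33 had less cover in both strains at 32 °C and 1 had more, or 9.62% and 0.292%, by a 10-point rule set out below that called 3.45% of all genes with less cover and 2.27% with more. Among the 5659 genes farther away, the shares were 3.07% and 2.39%. In rrm3 alone, 26.2% of the near genes and 13.8% of the others had less cover by 10 points, against 14.5% of all genes. GIM4, a subunit of the prefoldin chaperone 2.59 kb from the interval, had 24.2% of its length under peaks in WT and none in rrm3 at 32 °C, against 82.5% in WT log and 58.4% in rrm3 log. AIM34 was the single gene with more cover, at 36.7% and 39.0% at 32 °C against none in either log list.

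Several near genes had peaks in log alone. HTB2, which encodes histone H2B and lies 0.778 kb from the interval on chromosome II, had no cover at 32 °C, against 23.6% in WT log and 26.0% in rrm3 log. ERP2, a member of the p24 family of vesicle cargo proteins, had none at 32 °C, against 40.5% and 30.9% in log. ATO2, a putative ammonium transporter, had none at 32 °C, against 44.4% and 22.5% in log. OSH6, an oxysterol-binding protein homolog that carries phosphatidylserine, had none at 32 °C, against 34.2% and 18.7% in log. In these 4 genes both 32 °C lists were at 0 and both log lists above it.

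The second class that was lower in both strains was the ribosomal protein list. Its 138 genes are those of cytosolic ribosomal proteins and RPP1, which encodes a subunit of RNase P. Their bodies had a relative coverage of 0.848 in WT and 0.684 in rrm3 at 32 °C, against 1.19 in WT log and 0.973 in rrm3 log. The log2 change was -0.49 in WT and -0.51 in rrm3, a mean of -0.50 ± 0.02 (SD over both strains). With the upper 75% of each list by score it was -0.51 in WT and -0.21 in rrm3. Peaks touched 61 and 38 of these genes, upstream stretches included, at 32 °C (44.2% and 27.5%), against 68 and 55 in log (49.3% and 39.9%). Over all protein-coding genes the shares touched were 52.3% and 45.8% at 32 °C, against 49.5% and 52.5% in log, so the share in rrm3 fell there too. Most lists outside the comparison had the reverse order. The class stood at 0.864 to 1.02 in the 4 top2-1 lists at 32 °C. It was lower in the 4 top1 log lists, at 0.702 to 0.832, and in sen1rrm3 log, at 0.779. Only sen1 log was higher, at 1.36. The 4 top2-1 lists against the 6 other log lists gave a difference of 0.16 on the log2 scale (exact permutation p = 0.433, two-sided, adjusted p = 0.667).

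The other 12 classes were not called. Promoters, the 300 bp upstream of protein-coding genes, had a relative coverage of 1.67 in WT and 1.75 in rrm3 at 32 °C, against 2.08 and 1.54 in log, with log2 changes of -0.32 in WT and 0.19 in rrm3. Intergenic stretches between divergent genes, stretches between tandem genes and tRNA genes were also lower in WT and higher in rrm3, while gene bodies and genes of 4 kb and longer were higher in WT and lower in rrm3. In each of these the WT change is measured against the WT log list, which stood apart. Small nucleolar RNA genes had 1.86 and 1.81 at 32 °C, against 2.17 and 1.89 in log, which is enriched in all 4 lists. Ribosome biogenesis genes had 0.483 and 0.419, against 0.515 and 0.464. Chromosome ends, the outer 20 kb, stood near the genome's level, at 1.03 and 1.11 against 1.08 and 1.01. Heat-shock genes are given below.

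For single genes, cover is the share of the body plus 300 bp upstream that lies under peaks. A gene was called where both strains showed a difference of 10 percentage points or more in 1 direction. Of 6002 protein-coding genes, 136 had more cover at 32 °C (2.27%) and 207 had less (3.45%). At 20 points the counts were 46 and 57. In 129 and 198 of the called genes both 32 °C lists lay on the same side of both log lists. The median change over all genes was 0 in each strain, and the mean was 1.19 points in WT and -1.98 points in rrm3.

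Most changes in either strain were not shared. WT alone had 794 genes with more cover (13.2%) and 570 with less (9.5%), and rrm3 alone had 366 (6.1%) and 872 (14.5%). Those shared were 17.1% of the WT genes and 37.2% of the rrm3 genes with more cover, and 36.3% and 23.7% of those with less. Another 181 genes had more cover in WT and less in rrm3, and 49 the reverse. For scale, the same rule was applied to rrm3 against WT, required both at 32 °C and in log. It called 76 genes higher (1.27%) and 147 lower (2.45%). These counts are of the same order as those for 32 °C against log. In them, any effect of rrm3 and differences between libraries cannot be told apart.

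**Figure D4:**
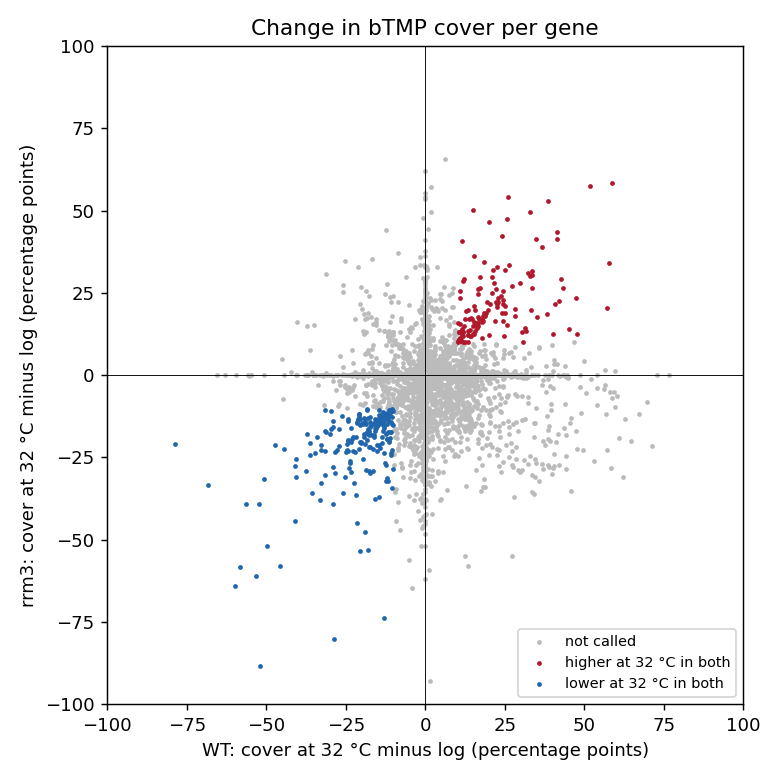
Change in bTMP cover, 32 °C minus log, in percentage points in WT (x axis) and rrm3 (y axis) for 6002 protein-coding genes, 1 point per gene. The 136 genes with at least 10 points more in both strains (red) and the 207 with at least 10 points less (blue) sit in opposite corners, and 181 genes lie beyond 10 points in the corner with more cover in WT and less in rrm3.

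The called genes resembled all genes in length and in polymerase occupancy. Median length was 1161 bp for genes with more cover and 1008 bp for those with less, against 1200 bp for all. At least 50% of the body lay under WT S-phase peaks of Rpb1, which carries the catalytic centre of RNA polymerase II, in 18.4% and 24.6% of them, against 21.9% of all genes. Of the genes with more cover, the largest part of the change lay upstream in 38, on the 5′ side of the body in 45 and on its 3′ side in 53, with the body split at its middle. For genes with less cover the numbers were 61, 78 and 68.

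The gene lists below are to be read against the shares over all genes, 2.27% with more cover and 3.45% with less. Of 38 chaperone and heat-shock genes, 2 had more cover in both strains (5.26%) and 1 had less (2.63%), both near those shares, and the list's median change was 0 in both strains. Peaks touched 24 and 20 of them at 32 °C, against 24 and 22 in log. Over all genes, 52.3% and 45.8% were touched at 32 °C, against 49.5% and 52.5% in log. Relative coverage of the class was 1.02 and 0.781 at 32 °C, against 1.03 and 1.05 in log. At equal list length, with the best-scored 3407 peaks of each list, the log2 change was -0.20 in WT and -0.42 in rrm3, and the class was then called lower.

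The 3 called genes encode 2 inducible proteins and a co-chaperone. HSP26, a small heat-shock protein that binds unfolding proteins, had a cover of 22.8% in WT and 23.3% in rrm3 at 32 °C and none in either log list. The peak in WT spanned chromosome II, 381907 to 382121, and lay partly in the promoter, of which 41% was covered in each 32 °C list. It ranked low, above 8.05% of the WT peaks and 10.8% of the rrm3 peaks by the authors' score. HSP31, a DJ-1 family methylglyoxalase with chaperone activity, had 32.8% and 30.1% at 32 °C and none in log, from a peak at chromosome IV, 1501966 to 1502298 in WT. That peak ranked above 69.9% of the WT peaks and 53.0% of the rrm3 peaks.

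SIS1, the essential Hsp40 partner of cytosolic Hsp70 whose product restrains Hsf1, had a difference of the opposite sign. It had no cover at 32 °C, against 40.8% in WT log and 44.4% in rrm3 log. The log peak spanned chromosome XIV, 618552 to 619106, in WT, lay wholly in the body and ranked above 86.9% of the WT log peaks. It held the widest stretch covered in both log lists and in neither 32 °C list, at 555 bp. SIS1 lies 9.58 kb from the centromere interval, so it belongs to the pericentromeric set as well.

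In lists outside the comparison these genes differed. HSP31 had a peak in 2 of the 4 top2-1 lists at 32 °C and in 0 of the 6 other log lists (exact permutation p = 0.133, adjusted p = 1). HSP26 had a peak in 4 of 4 top2-1 lists and in 4 of 6 log lists (exact permutation p = 0.719, adjusted p = 1). SIS1 had a peak in 2 of 4 and in 5 of 6 (exact permutation p = 0.133, adjusted p = 1). HSP26 was thus without a peak in 4 of the 8 log lists, WT and rrm3 included.

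Other members of the list were not called by the 10-point rule. HSP30, a membrane chaperone, had 75.2% and 73.1% at 32 °C, against 75.4% and 72.4% in log. BTN2, which sorts misfolded proteins, had 41.3% and 44.2%, against 39.7% and 40.4%. The gene of the regulator itself, HSF1, had 41.9% in WT and 15.5% in rrm3 at 32 °C, against 23.8% and 49.6% in log, so the strains were opposite. HSP82, which encodes the inducible Hsp90, had 15.7% and 15.2%, against 7.82% and 7.86%, a difference in both strains under the 10 points required. Its promoter, the upstream 300 bp, had 70% in WT and 64% in rrm3 under peaks at 32 °C and none in log. HSP82 thus meets the promoter rule given below, though not the 10-point rule.

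Of the histone genes, 0 of 11 had more cover and 2 had less (18.2%, against 3.45% of all genes). Their mean cover was 16.7% in WT and 12.01% in rrm3 at 32 °C, against 24.1% and 32.8% in log, with peaks over 5 and 6 of the 11 at 32 °C (45.5% and 54.5%) against 8 and 10 in log (72.7% and 90.9%). The list's median change was -1.31 points in WT and -22.0 points in rrm3, against 0 over all genes, so that most of it was in rrm3. HHT2, which encodes histone H3, had no cover at 32 °C, against 25.2% and 31.1% in log. Its divergent partner HHF2, which encodes histone H4, had 71.2% in WT and 24.5% in rrm3 at 32 °C, against 72.5% and 76.3% in log, a difference of -1.31 points in WT and -51.8 points in rrm3.

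Lists outside the comparison went against the direction for HTB2. All 4 top2-1 lists at 32 °C had a peak there, with a cover of 23.4% to 32.3%, while the 6 other log lists ranged between 0% and 22.7%, with a peak in 2 (exact permutation p = 0.00952, adjusted p = 1). HTB2 was thus without a peak at 32 °C in WT and rrm3 and had one in every top2-1 list at that temperature.

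The ribosomal protein list had 0 of 138 members called with more cover and 7 with less (5.07%, against 2.27% and 3.45% of all genes). RPL24B, a protein of the large subunit, had none at 32 °C, against 59.8% in WT log and 63.9% in rrm3 log, which put it first among genes with less cover, ranked by the smaller of the strains' differences. Its WT peak spanned chromosome VII, 787340 to 787798, and ranked above 9.44% of the WT log peaks. RPS2, a protein of the small subunit, had 0.282% and none at 32 °C, against 30.0% and 16.4% in log. RPS27A had none at 32 °C, against 18.3% and 17.3%, and its paralog RPS27B had none in WT and 15.7% in rrm3, against 18.0% and 33.7%. The others were RPS24B, RPS7B and RPL36B. Many of these genes have near-identical copies, whose reads the authors' processing could have divided between them.

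Of 78 ribosome biogenesis genes 3 had more cover (3.85%) and 2 had less (2.56%), near the 2.27% and 3.45% of all genes. NOP56, a core protein of box C/D small nucleolar ribonucleoproteins, had 27.9% and 29.8% at 32 °C, against 12.2% and 9.92% in log. TIF6, needed for large subunit assembly, had none at 32 °C, against 24.2% and 20.1% in log. Of 72 mitochondrial ribosomal protein genes 1 had more cover (1.39%), MRPL25, and 4 had less (5.56%), IMG2, MRP13, MRPL13 and MRPL17. HYP2, which encodes the translation factor eIF5A, had 9.95% and 10.9% at 32 °C, against 42.9% and 48.8% in log.

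The list of 20 hexose transport genes includes the glucose sensors SNF3 and RGT2 and the regulators RGT1 and STD1. Of the 20, 1 had more cover (5%, against 2.27% of all genes) and 3 had less (15%, against 3.45%). HXT5, a transporter made in slow growth and on non-fermentable carbon, had none in WT and 7.94% in rrm3 at 32 °C, against 28.2% and 31.4% in log. Its promoter was wholly covered in both log lists and uncovered at 32 °C, and the WT log peak at chromosome VIII, 296344 to 296813, ranked above 96.9% of that list. HXT1, the low-affinity glucose transporter, had 11.2% and none at 32 °C, against 23.2% and 31.2% in log. HXT16 had none at 32 °C, against 15.5% and 13.6%. HXT6, a high-affinity transporter, had 42.3% and 40.8% at 32 °C, against 30.7% and none in log, and shares nearly all its sequence with its neighbour HXT7.

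Of 12 galactose genes 0 had more cover and 2 had less (16.7%, against 3.45% of all genes). GAL1, which encodes galactokinase, had none at 32 °C, against 13.1% and 12.7% in log. GAL3, the inducer of the pathway, had 0.859% and 6.92% at 32 °C, against 16.7% and 20.3% in log. The list's median change was -0.10 points in WT and -5.31 points in rrm3. Of 19 glycolytic genes and 26 genes of gluconeogenesis and acetate use, 0 were called in either direction.

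Of 36 general stress genes, 0 had more cover and 2 had less (5.56%), close to the 2.27% and 3.45% of all genes. TPS1, which makes trehalose-6-phosphate, had none in WT and 8.28% in rrm3 at 32 °C, against 23.3% and 24.3% in log. DDR2, a small stress-induced gene, had 49.4% and none, against 78.0% and 80.04%. Of 32 cell wall integrity genes 0 had more and 2 had less (6.25%), also close to the shares of all genes, the wall protein gene PST1 and the yapsin protease gene YPS1. PST1 had none at 32 °C, against 36.3% and 24.3% in log.

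Among cyclin genes, CLB5, an S-phase cyclin, had none at 32 °C, against 13.0% in WT log and 13.3% in rrm3 log. Of 33 mating genes 3 had more cover (9.09%, against 2.27% of all genes), HMLALPHA1, HMLALPHA2 and MATALPHA2, which share sequence between the silent and the active cassette, so their peaks cannot be assigned to either. Of 46 respiration genes 2 had less (4.35%, against 3.45% of all genes), QCR2 and QCR10 of the cytochrome bc1 complex.

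Of 48 genes for topoisomerases, helicases and replication factors, 0 were called in either direction. TOP2 had 12.1% in WT and 12.5% in rrm3 at 32 °C, against none in WT log and 8.48% in rrm3 log, and missed the rule in rrm3. Its promoter had 50.3% and 52.0% under peaks at 32 °C and none in log. SEN1 had 3.33% and 6.10%, against 5.53% and 11.0%. TOP1 had 9.004% and 12.6%, against 12.6% and 36.5%, with most of the difference in rrm3.

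Non-coding genes were few among the changes. Of 275 tRNA genes, widened by 100 bp on each side, 4 had more cover and 4 had less (1.45% each). Peaks touched 68 tRNA genes in WT and 45 in rrm3 at 32 °C, against 63 and 54 in log. The tRNA genes listed as YNCL0032C and YNCO0029C were wholly covered in both 32 °C lists and uncovered in both log lists. Of 79 genes named SNR, which include spliceosomal RNAs, 0 had more and 2 had less (2.53%), SNR83 and SNR17B. Over all protein-coding genes the shares were 2.27% with more and 3.45% with less.

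Beyond the lists, the 12 genes with the most additional cover had little in common by name. YJR012C, an uncharacterised reading frame, had 58.8% in WT and 58.4% in rrm3 at 32 °C and none in log, from a WT peak at chromosome X, 459782 to 460205. YBR071W, which neighbours HSP26, had 76.1% and 78.1% at 32 °C, against 34.6% and 34.7% in log. There the 32 °C peak of WT ran over chromosome II, 380335 to 381214, while the WT log peak stopped at 380666. The same site is thus occupied in both conditions and wider at 32 °C.

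Transcription factor and transporter genes were among the others. YAP6, a leucine-zipper regulator next to the chaperone gene HSP78, had 69.4% and 55.8% at 32 °C, against 11.7% and 21.8% in log. ACA1, another leucine-zipper regulator, had 55.2% and 40.1%, against 21.5% and 8.42%. VMA3, a proteolipid subunit of the vacuolar proton pump, had 90.9% and 90.7%, against 56.1% and 49.4%. RPC11, a subunit of RNA polymerase III, had 33.0% and 49.4% at 32 °C and none in log, as did the S-adenosylmethionine permease gene SAM3, with 32.2% and 31.1%. The remaining genes of the 12 were YOL166W-A, ANS1, YDL159W-A, AIM34 and YAL064W.

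Among the 12 genes with the greatest reduction were RPL24B, GIM4, SIS1 and HYP2, given above. FMP16 had none at 32 °C, against 51.9% in WT log and 88.3% in rrm3 log, and RRT14 had none, against 49.6% and 51.8%. VMA7, another subunit of the vacuolar proton pump, had 8.07% and 7.15% at 32 °C, against 43.7% and 43.1% in log, the opposite direction to VMA3. MDY2, which helps insert tail-anchored proteins, had 23.2% and 20.4%, against 75.6% and 59.6%. PMP3, a small plasma membrane protein, had 9.19% and 10.7%, against 77.6% and 44.0%. The rest were YDR042C, MIN7 and SUE1.

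**Figure D5:**
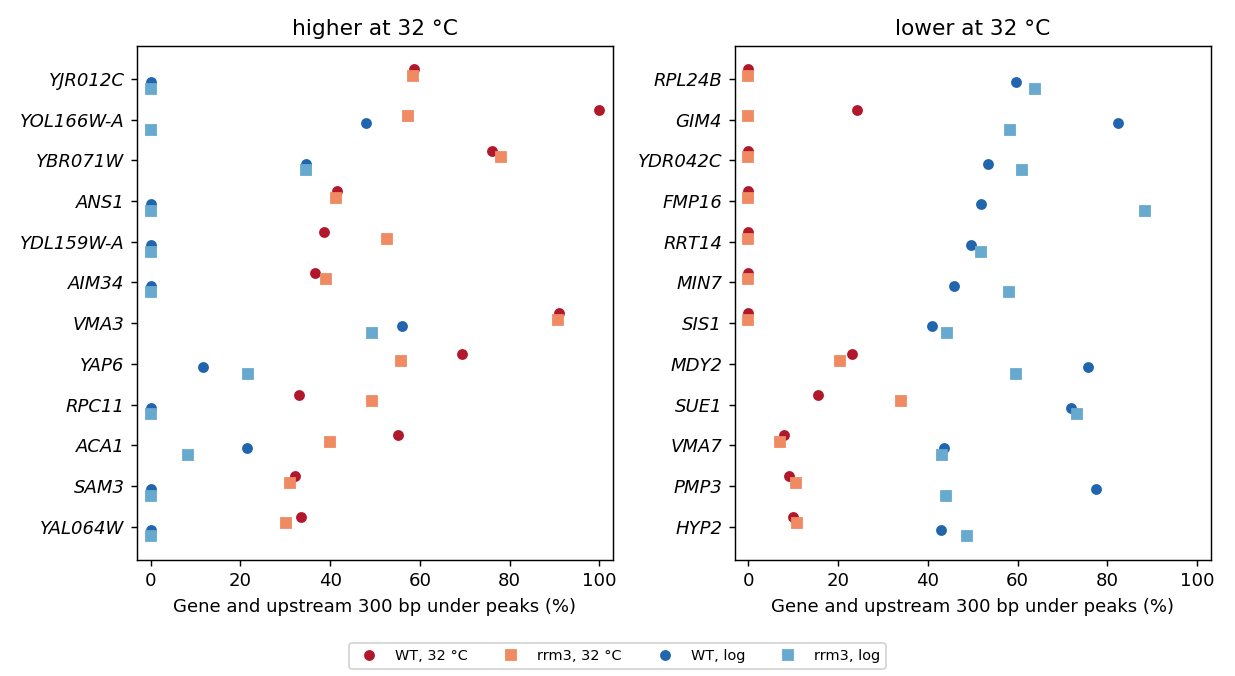
Share of each gene and its upstream 300 bp under bTMP peaks in percent (x axis) for the 12 genes with the most additional cover at 32 °C (left panel) and the 12 with the greatest reduction (right panel), 1 point per peak list. The genes were chosen for this pattern, so that in each row both 32 °C points (reds) lie on one side of both log points (blues), and 7 genes on the left and 6 on the right have a condition with no cover at all in both strains.

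A rule that does not depend on gene length asked for promoters at least 50% covered in both lists of 1 condition and uncovered in both of the other. It found 30 promoters occupied at 32 °C only (0.5% of 6002) and 44 occupied in log only (0.733%). With 500 bp upstream in place of 300 bp the counts were 15 and 9. Promoters of ANS1, AMD2, GAB1, EFR3, TRS130 and ESC1 were wholly covered in both 32 °C lists and uncovered in both log lists. EFR3, which anchors a phosphatidylinositol kinase to the membrane, and the splicing factor gene CEF1 are neighbours that are both on this list, as are TRS130, of the TRAPP tethering complex, and ESC1, a nuclear periphery protein. Such pairs count a single peak more than once. The promoter of MTD1, a folate dehydrogenase gene, was covered by 100% and 96.7% at 32 °C.

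Promoters occupied in log only included those of BEM1, a scaffold of cell polarity, and HXT5, both wholly covered in each log list. The promoter of RRT14 was covered by 88% and 87% in log, that of GTR2, a GTPase of nutrient signalling, by 85.7% and 85%, and that of the spliceosomal protein gene BRR1 by 78% and 77.3%. DNF2, which encodes a lipid flippase, had 77.7% and 73.3% in log. All were at 0% in both 32 °C lists. FMP16 and YDR042C also met the rule.

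The other lists differed in how often they had a peak at these promoters. Of the 44 occupied in log only, 22.7% to 45.5% held a peak in the 4 top2-1 lists at 32 °C, against 25% to 43.2% in the 4 top1 log lists, 52.3% in sen1 log (23 promoters) and 59.1% in sen1rrm3 log (26 promoters). Among all promoters 26.1% held a peak in sen1 log and 29.9% in sen1rrm3 log. Of the 30 occupied at 32 °C only, 26.7% to 43.3% held a peak in the top2-1 lists, against 20% to 53.3% in the 6 other log lists. Over all promoters, 25.7% to 29.2% held a peak in the top2-1 lists and 25.4% to 32.2% in the other log lists. In the widely spaced sen1 and sen1rrm3 lists at 32 °C, 56.7% and 73.3% of the 32 °C-only and 77.3% and 72.7% of the log-only promoters held a peak, against 46.4% and 44.1% of all.

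Without annotation, 285 stretches of at least 100 bp lay under both 32 °C lists and neither log list, 63300 bp in all, and 376 lay under both log lists and neither 32 °C list, 76541 bp in all. At equal list length the counts were 308 and 305. Another 1949 stretches, of 501694 bp, lay under peaks in all 4 lists. Stretches seen in 1 condition came from peaks ranked lower by the authors' score, at median percentiles of 47.0 at 32 °C only and 44.2 in log only, against 58.9 for those in all 4. Of the 32 °C-only base pairs, 2.24% lay within 20 kb of a centromere interval, against 16.002% of the log-only base pairs, 6.49% of those in all 4 lists and 5.45% of the genome. Ribosomal protein genes held 0.0964% and 1.59%, against 0.855% of the genome. Convergent intergenic stretches held 6.96% of the 32 °C-only and 4.28% of the log-only base pairs. They held 5.32% of those in all 4 lists and 4.32% of the genome. As a class they were not called, with log2 changes of 0.03 in WT and 0.16 in rrm3.

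The genes called in WT and rrm3 were also looked up in the 4 top2-1 lists at 32 °C against the 6 other log lists, a measure the calls did not use. Of the 136 genes with more cover, 72 were higher there, 63 lower and 1 equal. Of the 207 with less, 125 were lower there, 76 higher and 6 equal, while over all 6002 genes 2955 were lower, 1589 higher and 1458 equal. An exact permutation test on each of 4547 genes with a value above 0 called 0 after Benjamini-Hochberg adjustment, and 26 were higher (0.572%) and 77 lower (1.69%) at an unadjusted p under 0.05.

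Among the called genes 11 passed that unadjusted threshold. They were 2 of the 136 with more cover and, of the 207 with less, 6 in the same direction and 3 in the opposite one. Over all 4547 genes tested, 26 higher (0.572%) and 77 lower (1.69%) passed it. Whether the called genes passed more often than that was not tested. YBR071W averaged 61.2% in the top2-1 lists at 32 °C and 40.7% in the other log lists (exact permutation p = 0.0429, adjusted p = 1), the direction seen in WT and rrm3, and so did YAR1, at 21.4% and 8.64% (exact permutation p = 0.0476, adjusted p = 1). Among genes with less cover, 6 went the same way, PAL1, HNM1, HOP1, ALO1, AMF1 and ALG5. HNM1, the choline transporter, had none in WT and rrm3 at 32 °C, against 14.4% and 22.3% in log, and averaged 5.97% in the top2-1 lists and 22.4% in the other log lists (exact permutation p = 0.0143, adjusted p = 1). HTB2, YDR222W and CMK2 went the opposite way. These genes were picked by that threshold after their values were seen.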

How the data were processed

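Peak lists of bTMP pull-down libraries from budding yeast were used, 1 per strain and condition. The submitters' processing notes name Bowtie2, Picard, SAMtools and deepTools and no version. The peak caller, settings and build were not given in the sources used here. Files deposited by the authors give chromosome, start, end, a name and a score for each peak. What the authors' score measures is not said, and it served only for ranking within a list. The inputs were not analysed here, and read depth is unknown.

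Gene names, neighbours and classes came from RefSeq's R64 table, and strand from the systematic names. Because the build is not stated, ribosomal protein genes were shifted along the chromosomes: 99.3% of their base pairs lay under WT Rpb1 peaks unshifted, against 79.9% and 85.1% at shifts of 400 bp either way, so smaller build differences would go unseen. Coordinates are given as in the deposited peaks, 1-based, and the nuclear genome was set at 12.1 Mb on 16 chromosomes. The interval that separates the innermost genes of both arms stood for the centromere.

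Lists were compared as base pairs under peaks, with python 3.11.15, numpy 2.4.6, pandas 2.3.3 and scipy 1.17.1. The 10-point rule was checked on simulated lists. A class was called at a change of at least 0.1 on the log2 scale in both strains. The 4 top2-1 lists at 32 °C were tested against the 6 log lists other than WT and rrm3 with a two-sided exact permutation test and Benjamini-Hochberg adjustment. Those lists come from different strains, so their p-values measure spread between strains. Named genes were the 12 per direction whose 32 °C and log lists do not overlap, ranked by the smaller of the strains' differences, 8 promoters per direction by mean cover, up to 6 called members of each gene list and the strain loci. Other genes of the lists and near centromeres were chosen after their values were seen, and not every gene the rule takes is printed. The members, gene lists and tests were chosen with earlier results of these data known. Alternatives covered list length, score cut, call threshold, window size and single strains. Sequences are not shown.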

Additional observations from a re-analysis of the deposited data

Results flagged for a closer look

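Several measures moved in opposite directions in WT and rrm3, and no difference between the strains could be tested with 1 library each. The log2 change of the covered share, 32 °C over log, was higher in WT than in rrm3 by 0.59. For relative coverage, the change in WT minus that in rrm3 was -0.50 for promoters, 0.26 for gene bodies, -0.52 for divergent intergenic stretches, -0.33 for tandem intergenic stretches, -0.40 for tRNA genes and 1.62 for genes of 4 kb and longer. The WT log list, at 0.451 for the long genes, enters each of these values, and its part was not tested.

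In the groups used for the permutation test, 30 sets of values were examined for a list far from the others, of which about 1 in 20 would be picked out by chance. Relative coverage of genes of 4 kb and longer was 0.832 in sen1top2-1 at 32 °C, against 1.10 to 1.14 in the other top2-1 lists. Ribosomal protein genes had 1.36 in sen1 log, against 0.702 to 0.832 in the other 5 log lists.

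Mitochondrial peaks, left out elsewhere, numbered 11 in WT and 1 in rrm3 at 32 °C, against 1 in WT log and 3 in rrm3 log.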

How the results depend on the processing

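No paired analysis was possible because the labels carry no replicate numbers that link libraries, other than the pairing by strain that the report uses, where 2 pairs allow a sign-flip p of 0.5 at best. The pericentromeric and ribosomal protein changes and the covered shares kept their sign in each strain under the alternatives run, but which of a pair of counts was larger turned in several. The number of genes with more and with less cover at 32 °C, 136 and 207, became 46 and 57 at 20 points, 794 and 570 in WT alone, where more genes had more cover than less, and 366 and 872 in rrm3 alone. Classes lower in both strains numbered 4 in place of 2 with the upper 75% of each list by score, with snoRNA and heat-shock genes added, and 3 at equal list length, with heat-shock genes added. Promoters occupied at 32 °C only and in log only, 30 and 44, became 11 and 7 with at least 80% against at most 20% cover, and 15 and 9 with 500 bp upstream, with the 32 °C-only count the larger in both. Stretches, 285 and 376, became 138 and 152 at 200 bp or more, and 308 and 305 at equal list length. The pericentromeric change of -0.51 became -0.60 with the upper 75% of peaks, -0.58 within 10 kb and -0.36 within 40 kb. That of ribosomal protein genes, -0.50, became -0.54 at equal list length and -0.36 with the upper 75%. The cause was not tested. The alternatives for these class changes, and for rrm3 against WT, were added after seeing the data. In the top2-1 contrast, leaving out each list in turn gave between 0 and 0 adjusted calls for classes and for genes. As the smallest p can pass the adjustment over genes only where a great many genes share it, that says little about stability there. The 4 lists cover 8.19% to 10.2% of the genome and carry no depth, so a missing peak does not show that under-wound DNA was absent.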
